A study of Homo sapiens with 9 samples.

Results

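The genes described here are 60 genes of chromosome 20q11 to 20q13, the long arm of human chromosome 20, out of 62666 genes in the deposited table. They were chosen from the measured values, because genes of chromosome 20 are on balance higher in MCF10Ca1a in these libraries. Every value of MCF10Ca1a against the other lines is therefore given as a description with no test. MCF10AT1 against MCF10A was not the contrast behind the choice and was tested, although it uses libraries that the choice also used. All 60 symbols were found once in the table, and all 60 lie on 20q in the reference annotation, from ASXL1 nearest the centromere to DNAJC5 nearest the telomere.

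The study compared 3 human mammary epithelial cell lines of a single lineage by RNA sequencing, as a series of stages in breast cancer. MCF10A is an immortalised line that does not form tumours, and it was grown with 5% horse serum. MCF10AT1 is MCF10A carrying an activated HRAS gene, a model of a premalignant stage, and it was grown with 2.5% horse serum. MCF10Ca1a is a tumour-forming line obtained from MCF10AT cells passaged as xenografts, and it was grown with 5% horse serum. The medium of all 3 lines also held insulin, epidermal growth factor, hydrocortisone and cholera toxin. Serum and line cannot be told apart in comparisons with MCF10AT1. Each stage is represented by 1 line. Each line has 3 libraries that nothing describes as separate cultures, so a p-value here measures only the spread between these libraries, which may be technical.

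Gain of 20q is a frequent chromosome change in breast and other epithelial cancers. The arm carries several genes studied as candidate drivers, among them the nuclear receptor coactivator NCOA3, the zinc finger protein ZNF217 and the tyrosine kinase SRC. Genes that share an arm need share no function, and many of the 60 encode general proteins of RNA processing, glycosylation, vesicle traffic and protein turnover. DNA copy number was not analysed here.

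Library totals, in mega-counts (M), were 64.2 to 69.5 M estimated counts for MCF10A, 62.9 to 68.1 M for MCF10AT1 and 32.9 to 35.2 M for MCF10Ca1a. Levels below are CPM (counts per mega-count of the library) scaled by library with TMM, and levels of different genes are compared only in TPM, which is corrected for length. All 6 epithelial markers examined (KRT5, KRT14, KRT8, KRT18, CDH1 and EPCAM) were above 1 TPM in every line, with a summed level of 1773 to 3038 TPM. The blood and endothelial markers PTPRC, CD3E, CDH5 and VWF were near 0 TPM. The 4 blood markers examined were PTPRC, CD3E, CD68 and HBA1. Of these, 2 had a mean of 1 TPM or more in MCF10A, 2 in MCF10AT1 and 1 in MCF10Ca1a. The 4 blood markers summed to 30.2 to 33.6 TPM in MCF10Ca1a, mostly CD68, against 10.7 to 15.9 TPM in MCF10A and 3.91 to 4.48 TPM in MCF10AT1. The 3 endothelial markers summed to 15.6 to 20.8 TPM in MCF10Ca1a, mostly PECAM1, against at most 1.22 TPM elsewhere. The summed level of the 5 fibroblast markers was highest in MCF10AT1, at 27.6 to 31.5 TPM, nearly all of it DCN, while COL1A1 was at a mean of 3.06 TPM in MCF10A and 0.96 TPM in MCF10AT1. The part of these markers in the values below was not tested. In such bulk samples, fewer cells of a kind and less RNA per cell cannot be told apart.

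The libraries of a line did not rank evenly among the 59 members tested. In MCF10A, the CPM of replicate 1 was the highest of the 3 for 50 members (84.7%, against 46.7% of all genes tested), and that of replicate 3 the lowest for 45 (76.3%, against 41.9%). MCF10AT1 replicate 3 was the lowest of its line for 34 (57.6%, against 40.52%), and MCF10Ca1a replicate 3 the highest for 36 (61.0%, against 34.9%).

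Filtering on low counts left 59 of the 60 members among 17910 genes tested. The gene left out was PREX1, an exchange factor for the GTPase Rac, whose counts were 4 to 7 in MCF10A, 8 to 14 in MCF10AT1 and 4 to 9 in MCF10Ca1a. CD40 and PLTP were tested but had few counts. The other 57 ranged from a mean of 3.25 TPM (CHD6) to 449 TPM (PSMA7) in MCF10A. The median coefficient of variation of their CPM between libraries was 6.80% in MCF10A. That coefficient was 3.70% in MCF10AT1 and 2.74% in MCF10Ca1a. On the TPM scale, the highest member over all 9 libraries was the proteasome subunit PSMA7, with a mean of 494 TPM, followed by AHCY at 282 TPM and YWHAB at 275 TPM.

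The 3 lines differed in which of them held the highest level. MCF10Ca1a had the highest mean for 42 of the 59 members, MCF10A for 10 and MCF10AT1 for 7, where the shares over all genes were 40.1%, 33.5% and 26.5%. MCF10AT1 had the lowest mean for 29, MCF10A for 21 and MCF10Ca1a for 9, where the shares over all genes were 25.1%, 31.5% and 43.4%. All 3 MCF10Ca1a libraries lay above the other 6 for 36 members (61.0%), where 32.0% of all genes tested did so, and below the other 6 for 5 members (8.47%, against 33.8%). All 3 MCF10AT1 libraries lay below the other 6 for 21 members (35.6%, against 13.7%) and above them for 6 (10.2%, against 15.3%). The level in MCF10Ca1a chose the members, so these shares describe the choice.

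Against MCF10A, the median fitted log2 change of the members in MCF10Ca1a was 0.39, and 44 of the 59 had a change above 0 and 15 below it, where 48.2% and 51.8% of all genes did. Against MCF10AT1, the median was 0.61, with 48 above 0 and 11 below it, where 48.1% and 51.6% of all genes were. These values describe the choice of members, and nothing is read from them. The medians of all genes tested were -0.05 and -0.04. Changes below are on this log2 scale. Most differences were small. Against MCF10A, 7 members were higher in MCF10Ca1a by more than 1 on the log2 scale and 2 were lower by more than 1, as were 21.5% and 22.2% of all genes. Against MCF10AT1 these numbers were 13 and 2, beside 18.7% and 20.3% of all genes.

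**Figure D1:**
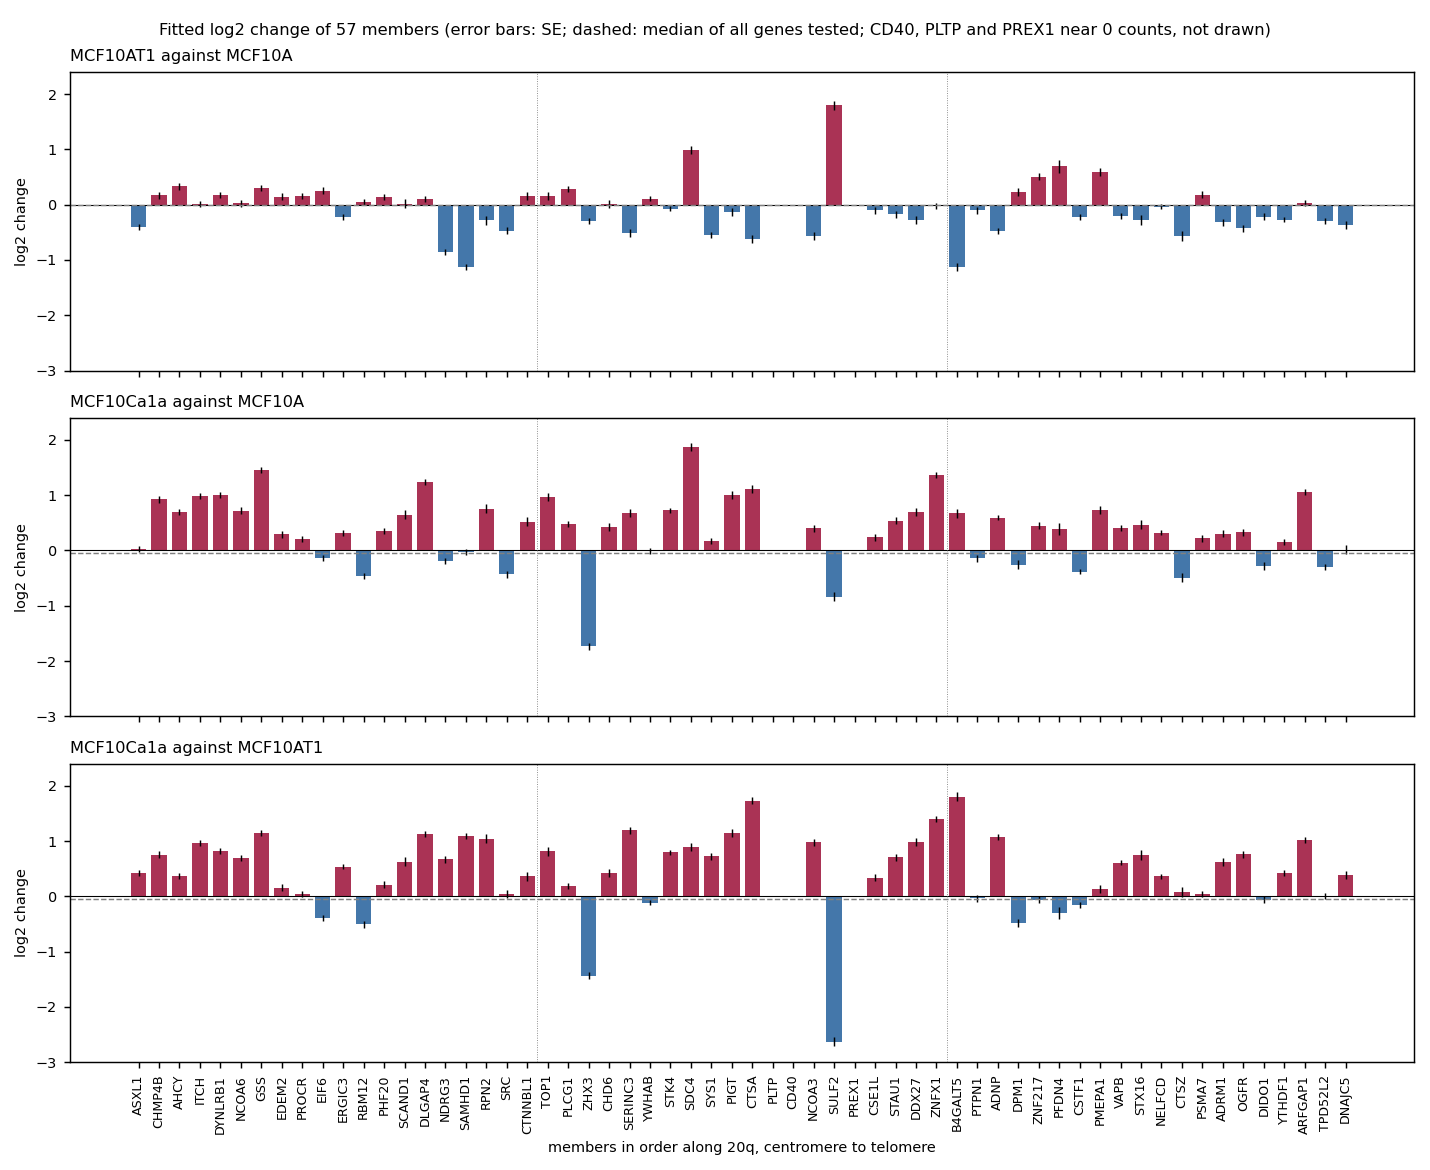
Fitted log2 change (vertical axis) of 57 members in order along 20q from centromere to telomere (horizontal axis) for each pair of lines; bars show the change, error bars its SE, the dashed line the median of all genes tested, and dotted lines divide the members into 3 runs. Most bars of MCF10Ca1a stand above 0 along the whole arm, with ZHX3 (-1.73 against MCF10A) and SULF2 (-2.63 against MCF10AT1) as the deepest bars below it.

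The comparison that could be tested was MCF10AT1 against MCF10A. Of the 59 members, 15 rose and 27 fell in MCF10AT1, and 17 did not pass the test (edgeR's quasi-likelihood test, adjusted p under 0.05). The 27 include CD40 and PLTP, which passed the filter on low counts with no MCF10AT1 library at its level, while the other 57 reached that level in all 9 libraries. Over all genes tested, 61.6% passed, 29.8% rose and 31.8% fell, while the shares among the members were 25.4% and 45.8%. This difference in shares was not tested. The median change of the members was -0.10, against -0.00 for all genes. The risers ranged from 0.14 (PHF20) to 1.80 (SULF2). The 25 fallers other than CD40 and PLTP ranged from -1.13 (B4GALT5) to -0.17 (STAU1), with a median of -0.37. The 17 members that did not pass had log2 changes of -0.13 to 0.16 with standard errors of 0.0468 to 0.0780.

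With deposited TPM values in place of counts, fewer members rose, and the split between risers and fallers moved. Limma on log2(TPM + 1) called 7 members higher and 27 lower, so that risers made up 20.6% of those called, against 35.7% with counts. Over all genes tested the share of risers among those called moved alike, from 48.4% with counts to 35.8%. The median of all genes moved from -0.00 to -0.07, and the members stood 0.10 below it with counts and 0.11 below it on the TPM scale. Without MCF10A replicate 1, 19 members rose and 26 fell, and the median was -0.040. The 4 added risers were TOP1, CTNNBL1, DLGAP4 and YWHAB, and STAU1 was no longer among the fallers. DPM1, DDX27 and STAU1 changed by more than 1.5 times. Without MCF10AT1 replicate 2, 10 rose and 7 of the 42 members that had passed no longer did. In all, 8 of the 42 (CHMP4B, DPM1, DYNLRB1, PHF20, PROCR, PSMA7, STAU1 and STX16) did not pass once at least 1 of the 9 libraries was left out.

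The members that rose, fell or did not pass in MCF10AT1 can be read beside their level in MCF10Ca1a. All 3 MCF10Ca1a libraries lay above the other 6 for 13 of the 17 that did not pass, where 36.2% of all genes that did not pass had this pattern. It held for 15 of the 27 that fell (21.3% of all genes that fell) and for 8 of the 15 that rose (38.0% of all that rose). The members were chosen for their level in MCF10Ca1a, so these counts describe the choice.

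**Figure D2:**
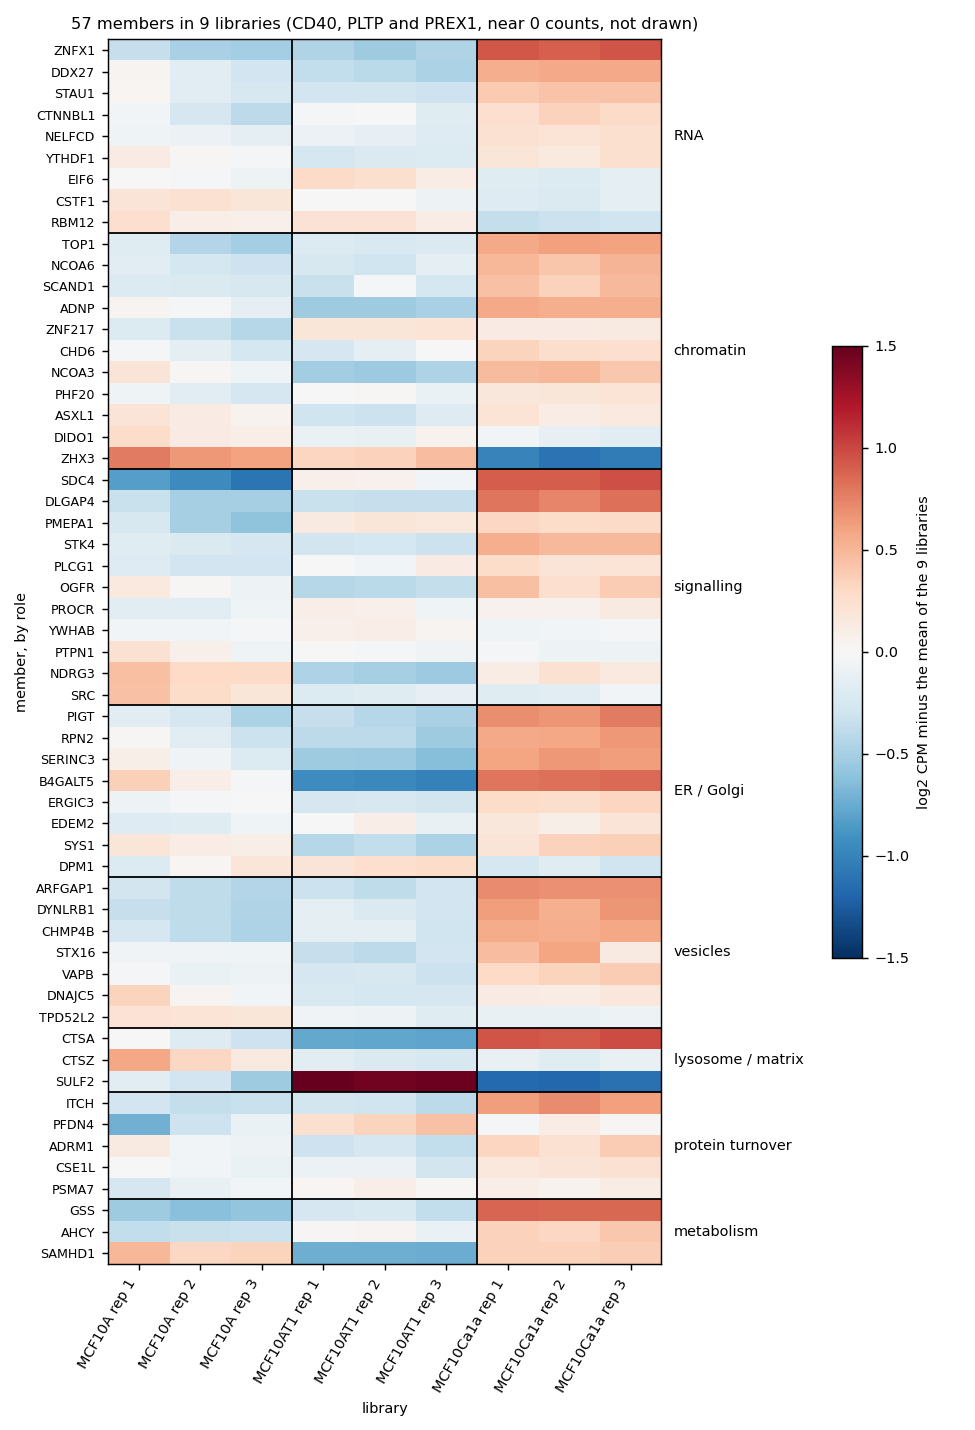
Level of 57 members (vertical axis, by role) in each of the 9 libraries (horizontal axis), as log2 CPM minus the gene's mean over the libraries, on a colour scale. The median of the 59 tested members lay between 0.26 and 0.28 in the MCF10Ca1a libraries, between -0.26 and -0.22 in MCF10AT1 and between -0.10 and -0.03 in MCF10A.

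The sequences before the start sites of 4 members are shown because their levels took different courses across the lines. SDC4 (chr20:45325288-45348424, ENSG00000124145.6) was lowest in MCF10A and highest in MCF10Ca1a. ZHX3 (chr20:41178448-41317672, ENSG00000174306.22) was lowest in MCF10Ca1a. SULF2 (chr20:47656348-47786616, ENSG00000196562.16) was highest in MCF10AT1. B4GALT5 (chr20:49632945-49713878, ENSG00000158470.5) was lowest in MCF10AT1. All 4 lie on the minus strand, and they were picked after their values were seen. Each line gives the 250 bases before the start site, 5′ to 3′, from RefSeq on GRCh38.p14, in lower case with motif matches in capitals. The windows are chr20:45348425-45348674, chr20:41317732-41317981, chr20:47786628-47786877 and chr20:49713879-49714128.
SDC4: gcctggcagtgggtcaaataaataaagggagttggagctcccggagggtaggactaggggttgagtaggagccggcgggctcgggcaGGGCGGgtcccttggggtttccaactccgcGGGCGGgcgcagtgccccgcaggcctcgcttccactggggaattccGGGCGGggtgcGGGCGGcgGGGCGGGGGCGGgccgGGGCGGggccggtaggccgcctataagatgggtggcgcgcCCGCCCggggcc
ZHX3: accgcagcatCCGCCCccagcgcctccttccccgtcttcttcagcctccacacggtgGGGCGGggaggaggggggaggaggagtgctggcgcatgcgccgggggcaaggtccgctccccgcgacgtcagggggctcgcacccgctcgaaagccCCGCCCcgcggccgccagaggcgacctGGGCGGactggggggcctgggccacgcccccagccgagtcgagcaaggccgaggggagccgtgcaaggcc
SULF2: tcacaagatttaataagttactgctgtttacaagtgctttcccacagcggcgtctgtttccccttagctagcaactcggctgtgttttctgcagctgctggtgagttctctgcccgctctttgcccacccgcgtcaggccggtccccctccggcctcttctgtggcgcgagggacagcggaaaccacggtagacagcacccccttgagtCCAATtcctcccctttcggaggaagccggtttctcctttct
B4GALT5: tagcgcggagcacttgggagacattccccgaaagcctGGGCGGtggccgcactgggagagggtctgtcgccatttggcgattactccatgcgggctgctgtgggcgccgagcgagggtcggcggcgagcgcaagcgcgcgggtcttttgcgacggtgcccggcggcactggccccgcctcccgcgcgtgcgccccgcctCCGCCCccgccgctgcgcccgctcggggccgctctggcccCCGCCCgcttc
Capitals mark matches on either strand to 6 motifs. The GC box was searched as GGGCGG. The TATA box was searched as TATAAA, and the box known as CCAAT by those letters. For the ETS family the search used CCGGAAG, for the E-box it used CACGTG and for the factor AP-1 it used TGACTCA. Overlapping matches were allowed. The SDC4 window held 8 GC boxes, some of them directly adjoining, and 73.6% G and C. The ZHX3 window held 4 GC boxes at 76.4% G and C, and the B4GALT5 window 3 GC boxes at 75.6%. The SULF2 window, at 56.8% G and C, held no GC box and 1 CCAAT box. SULF2 was thus the least GC-rich of these 4.

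RefSeq promoters of 300 bases (250 before the start and 50 after it) were matched by symbol for 51 of the 60 members. Their median G and C content was 66.3%, against 58.7% for all 35116 promoters in the table. A GC box was found in 34 (66.7%, against 45.0% of all) and an ETS motif in 14 (27.5%, against 10.3%). An E-box was found in 5 (9.80%, against 7.26%) and a CCAAT box in 15 (29.4%, against 34.6%). A TATA box was found in 2 (3.92%, against 11.5%) and an AP-1 motif in 1 (1.96%, against 4.95%). The differences between these shares were not tested and are not adjusted for base composition, and a match is a run of letters only. The 35116 promoters were not limited to genes that passed the filter on low counts, as nearly all members did. Whether the members differ in these values from other expressed genes, or from other genes of the arm, was not tested.

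The members were grouped by role. The groups hold 3 to 12 tested members, and their counts of risers and fallers in MCF10AT1 stand beside 29.8% and 31.8% over all genes tested, with no test of a difference. The largest group held 13 signalling and cell surface genes, of which 12 were tested. In MCF10AT1, 4 rose (SDC4, PMEPA1, PLCG1 and PROCR), 4 fell (NDRG3, SRC, OGFR and CD40) and 4 did not pass. Syndecan-4, encoded by SDC4, is a heparan sulphate proteoglycan of the cell surface. SDC4 was at 195, 179 and 161 CPM in the MCF10A, 363, 361 and 335 in the MCF10AT1 and 646, 646 and 672 in the MCF10Ca1a libraries. No library of one line overlapped another line, and the order was MCF10A, MCF10AT1, MCF10Ca1a from low to high. It rose in MCF10AT1 by 0.99 (SE 0.0686) on the log2 scale (adjusted p = 2.92e-08), and its MCF10Ca1a level exceeded that of MCF10A by 1.88 (SE 0.0702), the highest value of any member.

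CD40, a receptor of the tumour necrosis factor receptor family, was counted in MCF10A and almost not in the derived lines. Its counts were 118, 118 and 116 in the MCF10A libraries, 0 in each MCF10AT1 library and 0, 0 and 1 in MCF10Ca1a. Taking 3 counts per library as the floor, it was at least 39.3-fold lower in MCF10AT1 than in MCF10A. It passed the filter on low counts through the MCF10A libraries alone, so its test could hardly give another direction and no p is given. Even in MCF10A it reached only 1.78 CPM.

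PMEPA1 encodes a transmembrane protein known as a TGF-beta target and an inhibitor of TGF-beta signalling. It was at 131, 109.8 and 102 CPM in the MCF10A, 170.0, 175 and 173 in the MCF10AT1 and 192, 187 and 188 in the MCF10Ca1a libraries. The MCF10A libraries all lay below those of the other lines, and the rise in MCF10AT1 was 0.60 (SE 0.0750, adjusted p = 1.13e-05). PLCG1, a phospholipase C activated by growth factor receptors, rose by 0.28 (SE 0.0544, adjusted p = 0.000503). Its exons overlap those of ZHX3 on the other strand. PROCR, the endothelial protein C receptor, rose by 0.16 (SE 0.0546, adjusted p = 0.0207). PROCR did not pass without MCF10A replicate 2 (adjusted p = 0.0863) or MCF10AT1 replicate 1 (0.0935) or 2 (0.0779), and limma on log2(TPM + 1) put it at 0.020 (adjusted p = 0.822).

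Among the fallers, NDRG3, of the N-myc downstream-regulated family, was at 71.2, 63.7 and 63.2 CPM in the MCF10A, 37.5, 36.7 and 35.5 in the MCF10AT1 and 56, 60.8 and 57.5 in the MCF10Ca1a libraries. Its MCF10AT1 libraries lay below all others, with a log2 change of -0.85 (SE 0.0576, adjusted p = 2.15e-08). SRC, the cellular homologue of a viral oncogene and a kinase of adhesion and growth factor signalling, was at 63.2, 56.1 and 52.6 CPM in the MCF10A, 40.4, 40.95 and 42.8 in the MCF10AT1 and 40.9, 41.5 and 45.02 in the MCF10Ca1a libraries. SRC was lower in both derived lines, whose libraries overlapped each other. Its log2 change was -0.47 (SE 0.0661) in MCF10AT1 (adjusted p = 3.25e-05) and -0.43 in MCF10Ca1a, both against MCF10A. Thus this known 20q oncogene was not among the members highest in MCF10Ca1a. OGFR, the opioid growth factor receptor, fell by 0.43 (SE 0.0647) in MCF10AT1 (adjusted p = 5.86e-05).

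The remaining 4 signalling members did not pass in MCF10AT1. PTPN1, a tyrosine phosphatase that acts on the insulin receptor, was at 144, 129 and 118 CPM in the MCF10A, 123, 122 and 118 in the MCF10AT1 and 121, 117 and 116 in the MCF10Ca1a libraries. Its 3 lines overlapped, and the change in MCF10AT1 was -0.11 (SE 0.0650, adjusted p = 0.178). Without MCF10A replicate 1 the change was -0.03 (adjusted p = 0.637), and without MCF10A replicate 3 it was -0.17 and passed (adjusted p = 0.0144). STK4, a kinase of the Hippo pathway, was at 68.3, 66.9 and 65.2 CPM in the MCF10A, 64.2, 64.6 and 61.9 in the MCF10AT1 and 114, 109 and 109 in the MCF10Ca1a libraries. DLGAP4, a scaffold protein, was at 50.5, 45.1 and 45.1 CPM in the MCF10A, 50.8, 50.2 and 50.4 in the MCF10AT1 and 112, 106 and 113 in the MCF10Ca1a libraries. In MCF10AT1, DLGAP4 passed without MCF10A replicate 1 (0.16, adjusted p = 0.0037), and STK4 passed with limma on log2(TPM + 1) (-0.20, adjusted p = 0.0298). For both, MCF10Ca1a lay clear above overlapping or adjoining MCF10A and MCF10AT1 libraries, by 0.73 and 1.23 against MCF10A. YWHAB, a 14-3-3 adaptor protein, differed by 0.11 in MCF10AT1 and -0.01 in MCF10Ca1a, both against MCF10A. It passed in MCF10AT1 without MCF10A replicate 1 (adjusted p = 0.0419), with the DESeq2 Wald test (0.018) and after thinning to the smallest library (0.0393).

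**Figure D3:**
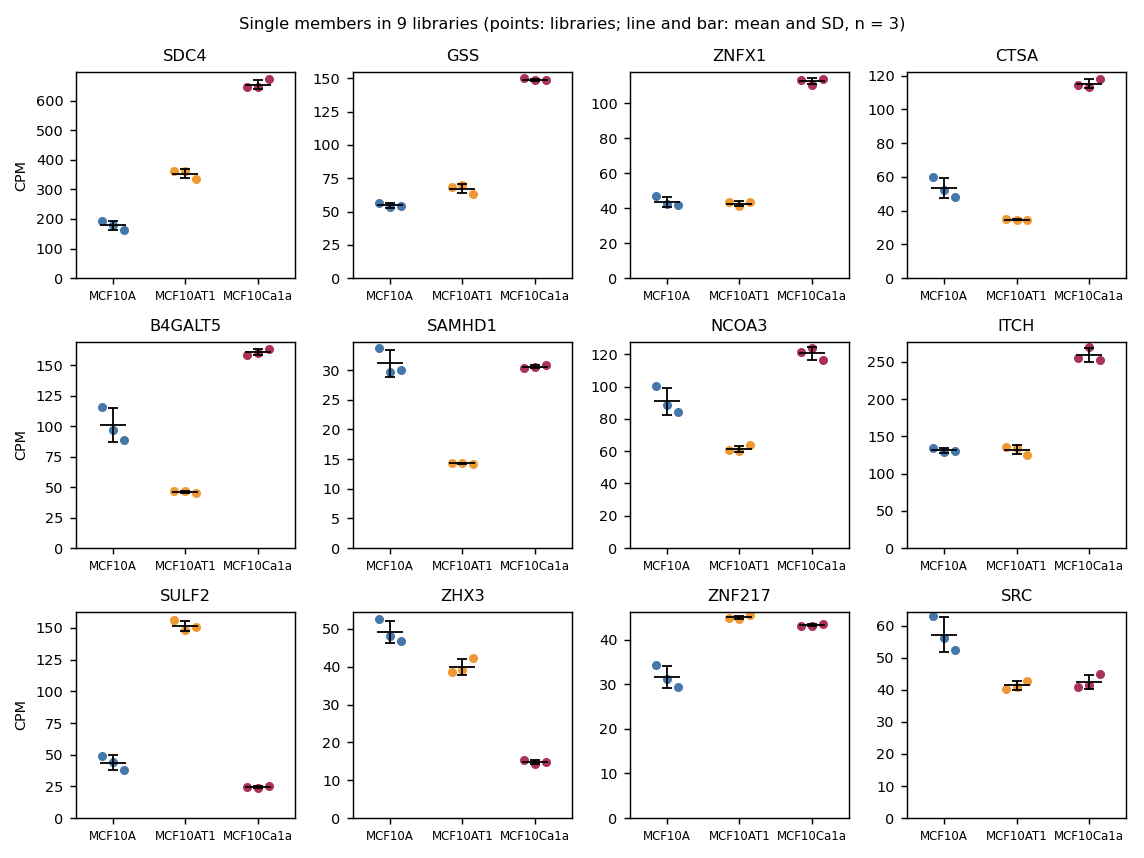
Level of 12 members in CPM (vertical axis, from 0) by line (horizontal axis); points are libraries, and the line and bar are the mean and SD of 3 libraries. SDC4 lies at 161 to 195 CPM in MCF10A and at 646 to 672 CPM in MCF10Ca1a, SULF2 peaks at 149 to 156 CPM in MCF10AT1, and SAMHD1 has its lowest level, 14.2 to 14.4 CPM, in MCF10AT1.

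Chromatin and transcription genes numbered 11, and all were tested. In MCF10AT1, 2 rose (ZNF217 and PHF20) and 5 fell (NCOA3, ADNP, ASXL1, ZHX3 and DIDO1), while TOP1, NCOA6, SCAND1 and CHD6 did not pass. Their median change was 0.01 and was below 0 in 10 of 21 alternative analyses, so no direction is given for the group. PHF20 rose by 0.14 (SE 0.0558, adjusted p = 0.0475), but it still passed only where the library left out was MCF10A replicate 1 or MCF10AT1 replicate 3. Without any 1 of the other 7 its adjusted p was 0.057 to 0.155, and the DESeq2 Wald test gave 0.0621. In MCF10Ca1a the medians were 0.42 against MCF10A and 0.43 against MCF10AT1.

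NCOA3 is a coactivator of steroid hormone receptors that is amplified in some breast cancers. It was at 100.3, 88.7 and 83.97 CPM in the MCF10A, 60.8, 59.8 and 63.6 in the MCF10AT1 and 121, 124 and 116 in the MCF10Ca1a libraries. The lines did not overlap, with MCF10AT1 lowest and MCF10Ca1a highest. NCOA3 fell by 0.57 (SE 0.0639) in MCF10AT1 (adjusted p = 3.86e-06) and stood 0.41 above MCF10A in MCF10Ca1a. Its exons overlap those of SULF2 on the other strand.

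ZNF217, a zinc finger repressor of the 20q13 amplicon, was at 34.3, 31.2 and 29.4 CPM in the MCF10A, 44.8, 44.7 and 45.4 in the MCF10AT1 and 43.1, 43.1 and 43.5 in the MCF10Ca1a libraries. It rose in MCF10AT1 by 0.51 (SE 0.0556, adjusted p = 2.90e-06), with all MCF10A libraries below the other 6. MCF10Ca1a and MCF10AT1 differed by -0.06 in counts, whereas mean TPM was 14.9 in MCF10Ca1a and 12.3 in MCF10AT1. On the TPM scale the rise in MCF10AT1 was 0.30 and did not pass (adjusted p = 0.0503, limma on log2(TPM + 1)).

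TOP1, the DNA topoisomerase that is the target of camptothecin drugs, was at 237, 198 and 189 CPM in the MCF10A, 233, 230.3 and 232 in the MCF10AT1 and 399, 411 and 409.8 in the MCF10Ca1a libraries. MCF10Ca1a lay above both other lines, which overlapped. The log2 change was 0.97 (SE 0.0729) against MCF10A in MCF10Ca1a and 0.16 (SE 0.0723) in MCF10AT1, where it did not pass (adjusted p = 0.0774). Without MCF10A replicate 1, the change in MCF10AT1 was 0.26 and passed (adjusted p = 7e-05).

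ZHX3, a zinc finger and homeobox repressor, had the lowest log2 change of any member in MCF10Ca1a against MCF10A apart from CD40. It was at 52.6, 48.2 and 46.8 CPM in the MCF10A, 38.5, 39.04 and 42.3 in the MCF10AT1 and 15.3, 14.2 and 14.8 in the MCF10Ca1a libraries. The 3 lines did not overlap. ZHX3 fell by 0.30 (SE 0.0573) in MCF10AT1 (adjusted p = 0.000453) and in MCF10Ca1a was at -1.73 (SE 0.0638) against MCF10A. Its direct neighbours along the order of members, PLCG1 and CHD6, were higher in MCF10Ca1a by 0.47 and 0.42.

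ASXL1, a Polycomb-associated protein, was at 103, 97.97 and 93.3 CPM in the MCF10A, 72.96, 72.04 and 78.4 in the MCF10AT1 and 104, 97.1 and 99.3 in the MCF10Ca1a libraries. MCF10AT1 lay below the overlapping other lines, with a log2 change of -0.40 (SE 0.0550, adjusted p = 2.77e-05). ADNP, a homeobox protein of a chromatin-remodelling complex, fell by 0.47 (SE 0.0526) in MCF10AT1 (adjusted p = 3.31e-06) and was higher in MCF10Ca1a than in MCF10AT1 by 1.07. DIDO1, a PHD finger protein, fell by 0.22 (SE 0.0640, adjusted p = 0.00837), but was at -0.06 with length-scaled counts (adjusted p = 0.487) and at -0.17 with limma on log2(TPM + 1) (0.126), where it did not pass. The remodeller CHD6 and the coactivator NCOA6 did not pass in MCF10AT1 (0.01 and 0.02) and were at 0.42 and 0.72 in MCF10Ca1a against MCF10A. NCOA6 shares exon bases with PIGU on the same strand. SCAND1, a small SCAN-domain protein, was at 0.02 in MCF10AT1, where it did not pass, and at 0.65 in MCF10Ca1a against MCF10A.

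The endoplasmic reticulum, Golgi and glycosylation genes numbered 8. In MCF10AT1, 5 fell (B4GALT5, SYS1, SERINC3, RPN2 and ERGIC3) and 1 rose (DPM1), with a median of -0.25, where 31.8% of all genes tested fell and 29.8% rose. PIGT and EDEM2 did not pass. In MCF10Ca1a the median was 0.49 against MCF10A and 0.88 against MCF10AT1. B4GALT5, a galactosyltransferase that makes lactosylceramide, was at 116, 97.1 and 89.01 CPM in the MCF10A, 46.9, 46.5 and 44.8 in the MCF10AT1 and 158, 160.3 and 163 in the MCF10Ca1a libraries. No lines overlapped, with MCF10AT1 lowest. The change in MCF10AT1 was -1.13 (SE 0.0790, adjusted p = 3.13e-08), and MCF10Ca1a stood 1.80 above MCF10AT1.

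RPN2, a subunit of the oligosaccharyltransferase that adds N-glycans, was at 259, 229 and 205 CPM in the MCF10A, 196, 195 and 177 in the MCF10AT1 and 382, 385 and 403 in the MCF10Ca1a libraries. It fell by 0.29 (SE 0.0772) in MCF10AT1 (adjusted p = 0.00569). SERINC3, a membrane protein, fell by 0.52 (SE 0.0684, adjusted p = 1.81e-05). Both had every MCF10AT1 library at the bottom and every MCF10Ca1a library at the top. SYS1, a Golgi trafficking protein, fell by 0.55 (SE 0.0567, adjusted p = 1.63e-06), and ERGIC3, a cargo receptor between the reticulum and the Golgi, fell by 0.22 (SE 0.0471, adjusted p = 0.000975).

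PIGT, a subunit of the transamidase that attaches GPI anchors, was at 64.4, 61.1 and 52.4 CPM in the MCF10A, 57.1, 53.98 and 51.8 in the MCF10AT1 and 118, 115 and 125 in the MCF10Ca1a libraries. MCF10Ca1a was higher than MCF10A by 1.01 (SE 0.0719), while the other lines overlapped. The change in MCF10AT1 was -0.13 (SE 0.0716, adjusted p = 0.141), and without MCF10A replicate 1 it was -0.06 (adjusted p = 0.412). Without MCF10A replicate 3 it was -0.21 and passed (adjusted p = 0.00569). DPM1, which makes the mannose donor dolichol phosphate mannose, was at 61.2, 72.1 and 79.7 CPM in the MCF10A, 80.4, 83.7 and 85.3 in the MCF10AT1 and 58.9, 62.2 and 57.2 in the MCF10Ca1a libraries. It rose in MCF10AT1 by 0.23 (SE 0.0774, adjusted p = 0.0208), but did not pass with scaled counts (adjusted p = 0.0614), without MCF10AT1 replicate 2 (0.0569) or 3 (0.0713), or with limma on TPM values (0.243 to 0.310). Without MCF10A replicate 1 its rise was 0.13 (adjusted p = 0.041). EDEM2, which speeds disposal of misfolded glycoproteins, was at 0.14 in MCF10AT1 and did not pass (adjusted p = 0.0615), although it did without MCF10A replicate 3 (0.0243) or MCF10AT1 replicate 3 (0.0199). DPM1 was the only member of this group below MCF10A in MCF10Ca1a, at -0.26.

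All 9 RNA processing and translation genes were tested. EIF6 rose in MCF10AT1, while YTHDF1, STAU1, DDX27 and CSTF1 fell. The other 4 did not pass. The median of the 9 was -0.04 in MCF10AT1, 0.32 in MCF10Ca1a against MCF10A and 0.36 against MCF10AT1. Over the alternative analyses it ran from -0.16 to -0.01, from 0.25 to 0.47 and from 0.27 to 0.62. ZNFX1, an RNA helicase-like protein that senses viral RNA, was at 46.9, 42.3 and 41.6 CPM in the MCF10A, 43.4, 41.1 and 43.6 in the MCF10AT1 and 113, 111 and 114 in the MCF10Ca1a libraries. MCF10Ca1a was far above the overlapping MCF10A and MCF10AT1 libraries. The change was 1.37 (SE 0.0555) in MCF10Ca1a against MCF10A and -0.03 (SE 0.0552) in MCF10AT1 (adjusted p = 0.669). The next member towards the centromere, the helicase DDX27, has exons that overlap those of ZNFX1 on the other strand. DDX27 fell by 0.28 (SE 0.0708) in MCF10AT1 (adjusted p = 0.00332), by 0.19 without MCF10A replicate 1 (adjusted p = 0.00286), and was at 0.70 in MCF10Ca1a against MCF10A.

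EIF6, an anti-association factor of the large ribosomal subunit, was at 162, 159.9 and 154 CPM in the MCF10A, 199, 193 and 176 in the MCF10AT1 and 143, 142 and 149 in the MCF10Ca1a libraries. It rose in MCF10AT1 by 0.25 (SE 0.0558, adjusted p = 0.00130) and was lowest in MCF10Ca1a. With limma on log2(TPM + 1) the rise of EIF6 was 0.13 and did not pass (adjusted p = 0.211). STAU1, a protein that binds double-stranded RNA, fell by 0.17 (SE 0.0630, adjusted p = 0.0315). Without MCF10A replicate 1 it was at -0.09 and did not pass (adjusted p = 0.0713). It also missed the threshold without any 1 of the 3 MCF10AT1 libraries (0.0693 to 0.083), without MCF10Ca1a replicate 2 (0.0527) and in a fit of only MCF10A and MCF10AT1 (0.0909). YTHDF1, a reader of methylated adenosine, fell by 0.27 (SE 0.0516, adjusted p = 0.000471). CSTF1, a subunit of the polyadenylation factor CstF, fell by 0.22 (SE 0.0472, adjusted p = 0.00106). NELFCD, a subunit of the negative elongation factor, and CTNNBL1, a spliceosome-associated protein, did not pass in MCF10AT1 (-0.04 and 0.16). CTNNBL1 passed without MCF10A replicate 1 (0.26, adjusted p = 0.00182) or MCF10AT1 replicate 3 (0.0495), and with no filter on low counts (0.0225). NELFCD and CTNNBL1 were at 0.32 and 0.52 in MCF10Ca1a against MCF10A.

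RBM12, an RNA-binding protein, was at 151, 136 and 133 CPM in the MCF10A, 147, 148 and 138 in the MCF10AT1 and 99.3, 102 and 103 in the MCF10Ca1a libraries. It was -0.46 in MCF10Ca1a against MCF10A and 0.04 in MCF10AT1 (adjusted p = 0.533). RBM12 shares exon bases on the same strand with CPNE1, whose mean was 80.9 CPM in MCF10A, 96.2 CPM in MCF10AT1 and 157 CPM in MCF10Ca1a. In MCF10Ca1a the pair stood on opposite sides of MCF10A, with CPNE1 at 0.96. How reads were divided between the pair was not tested, so the value of RBM12 is uncertain.

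Vesicle traffic genes numbered 7. In MCF10AT1, DYNLRB1 and CHMP4B rose, TPD52L2, DNAJC5, STX16 and VAPB fell, and ARFGAP1 did not pass. The median was -0.20 in MCF10AT1, 0.47 in MCF10Ca1a against MCF10A and 0.75 against MCF10AT1. Over the alternative analyses these medians ran from -0.22 to -0.05, from 0.39 to 0.92 and from 0.65 to 0.99. ARFGAP1, which switches off the GTPase ARF1 on Golgi membranes, was at 46.4, 43.3 and 41.4 CPM in the MCF10A, 44.8, 43.2 and 46.1 in the MCF10AT1 and 92.2, 90.5 and 90.4 in the MCF10Ca1a libraries. MCF10Ca1a exceeded MCF10A by 1.06 (SE 0.0527), with overlapping MCF10A and MCF10AT1 libraries (0.03, adjusted p = 0.599). With length-scaled counts ARFGAP1 was at 0.22 in MCF10AT1 and passed (adjusted p = 0.00981), as it did with scaled counts (0.0114).

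DYNLRB1, a dynein light chain, was at 56.9, 55.3 and 52.8 CPM in the MCF10A, 64.96, 61.9 and 59.2 in the MCF10AT1 and 111, 104 and 114 in the MCF10Ca1a libraries. It rose in MCF10AT1 by 0.17 (SE 0.0551, adjusted p = 0.0141) and was 0.996 in MCF10Ca1a against MCF10A. The rise did not pass without MCF10AT1 replicate 1 (adjusted p = 0.0728) or with limma on log2(TPM + 1) (0.07, adjusted p = 0.515). CHMP4B, a membrane-cutting subunit of the ESCRT-III complex, rose by 0.17 (SE 0.0613, adjusted p = 0.0271) and was 0.93 in MCF10Ca1a. CHMP4B did not pass in MCF10AT1 without MCF10A replicate 2 (adjusted p = 0.0863) or 3 (0.0917), without MCF10AT1 replicate 1 (0.093) or 2 (0.108), with length-scaled counts (0.055) or with limma on log2(TPM + 1) (0.03, adjusted p = 0.812). Both were highest in MCF10Ca1a in all 3 libraries. TPD52L2, a relative of the tumour protein D52, was at 197, 195 and 192 CPM in the MCF10A, 164, 161 and 149 in the MCF10AT1 and 157, 156 and 161 in the MCF10Ca1a libraries. It was highest in MCF10A, with a log2 change in MCF10AT1 of -0.30 (SE 0.0506, adjusted p = 0.000157). STX16, a syntaxin of the trans-Golgi network, fell by 0.28 (SE 0.0869, adjusted p = 0.0124) and was the least even member in MCF10Ca1a, at 129, 141 and 103 CPM. Its fall did not pass without MCF10AT1 replicate 2 (adjusted p = 0.0529) or after thinning (0.0556). DNAJC5, a chaperone of synaptic vesicle proteins, fell by 0.37 (SE 0.0780, adjusted p = 0.000952), and VAPB, a tether of the endoplasmic reticulum, fell by 0.20 (SE 0.0481, adjusted p = 0.00218). VAPB was at -0.05 with length-scaled counts (adjusted p = 0.471) and at -0.17 with limma on log2(TPM + 1) (0.0663), and did not pass in either.

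The protein folding, ubiquitin, proteasome and nuclear transport genes numbered 5. PFDN4 and PSMA7 rose in MCF10AT1, ADRM1 fell, and ITCH and CSE1L did not pass. PFDN4, a subunit of the chaperone prefoldin, was at 26.9, 35.8 and 41.5 CPM in the MCF10A, 52.3, 56.01 and 60.02 in the MCF10AT1 and 43.7, 47.97 and 44.9 in the MCF10Ca1a libraries. Its rise of 0.69 (SE 0.114, adjusted p = 0.000131) was the third largest of any member, and its MCF10A libraries were the most spread of the 57. The difference between MCF10Ca1a and MCF10AT1 was -0.30 in counts and 0.000618 on the log2(TPM + 1) scale.

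PSMA7, an alpha subunit of the proteasome core, rose by 0.18 (SE 0.0592, adjusted p = 0.0179), with 245, 269.8 and 283 CPM in the MCF10A, 297, 311 and 295 in the MCF10AT1 and 312, 303 and 314 in the MCF10Ca1a libraries. It did not pass without MCF10AT1 replicate 2 (adjusted p = 0.0758) or with limma on log2(TPM + 1) (0.562). ADRM1, a ubiquitin receptor of the proteasome, was at 115, 102 and 98.8 CPM in the MCF10A, 84.2, 87.5 and 80.98 in the MCF10AT1 and 130.3, 122 and 136 in the MCF10Ca1a libraries, with a log2 change of -0.32 (SE 0.0642) in MCF10AT1 (adjusted p = 0.000684). The 2 proteasome genes thus moved in opposite directions in MCF10AT1. ITCH, a ubiquitin ligase, was at 135, 129 and 131 CPM in the MCF10A, 136, 135 and 125 in the MCF10AT1 and 255, 269.5 and 252 in the MCF10Ca1a libraries. MCF10A and MCF10AT1 overlapped (0.01 (SE 0.0530), adjusted p = 0.908), and MCF10Ca1a was higher than MCF10A by 0.98 (SE 0.0535). CSE1L, which returns importin alpha to the cytoplasm, was at 498, 483 and 464 CPM in the MCF10A, 469, 467 and 410.0 in the MCF10AT1 and 553, 566 and 584 in the MCF10Ca1a libraries, with -0.10 (SE 0.0629) in MCF10AT1 (adjusted p = 0.175). With limma on log2(TPM + 1) CSE1L was at -0.22 and passed (adjusted p = 0.0486), but it did not pass with a pseudocount of 0.1 (0.0749) or with no filter (0.0893).

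Metabolic enzymes numbered 3, of which GSS and AHCY rose in MCF10AT1 and SAMHD1 fell. GSS, the glutathione synthetase, was at 56.5, 53.2 and 54.3 CPM in the MCF10A, 68.5, 70.02 and 63.2 in the MCF10AT1 and 150.0, 149 and 149 in the MCF10Ca1a libraries. The lines did not overlap. GSS rose in MCF10AT1 by 0.30 (SE 0.0519, adjusted p = 0.000203), although not with limma on log2(TPM + 1) (0.14, adjusted p = 0.0885), and was 1.45 (SE 0.0526) in MCF10Ca1a against MCF10A. AHCY, which hydrolyses S-adenosylhomocysteine, was at 384, 395 and 397 CPM in the MCF10A, 503, 509.7 and 462 in the MCF10AT1 and 629, 612 and 657 in the MCF10Ca1a libraries. It followed the same order of lines, with a rise in MCF10AT1 of 0.33 (SE 0.0570, adjusted p = 0.000205), which did not pass with limma on log2(TPM + 0.1) (0.18, adjusted p = 0.0603).

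SAMHD1, a dNTP hydrolase that limits the nucleotide pool and viral replication, was at 33.8, 29.6 and 30 CPM in the MCF10A, 14.3, 14.4 and 14.2 in the MCF10AT1 and 30.4, 30.4 and 30.9 in the MCF10Ca1a libraries. MCF10AT1 was below all other libraries, and MCF10A and MCF10Ca1a overlapped. The change in MCF10AT1 was -1.12 (SE 0.0571, adjusted p = 1.15e-09), and MCF10Ca1a differed from MCF10A by -0.03.

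The 4 lysosomal and secreted or matrix genes moved apart. SULF2, a secreted sulphatase that trims heparan sulphate, was at 49, 44.5 and 37.6 CPM in the MCF10A, 156, 149 and 151 in the MCF10AT1 and 24.3, 24.1 and 25.1 in the MCF10Ca1a libraries. No lines overlapped, with MCF10AT1 highest and MCF10Ca1a lowest. The rise in MCF10AT1 was 1.80 (SE 0.0767, adjusted p = 2e-10), the largest among the members, and MCF10Ca1a stood at -2.63 (SE 0.0821) against MCF10AT1. SULF2 and SDC4 both concern heparan sulphate, and both rose in MCF10AT1, but in MCF10Ca1a SDC4 was the highest member against MCF10A and SULF2 was below its MCF10A level.

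CTSA, the lysosomal protective protein cathepsin A, was at 59.7, 52.3 and 47.98 CPM in the MCF10A, 35.03, 34.6 and 34.4 in the MCF10AT1 and 114, 113 and 118 in the MCF10Ca1a libraries. The lines did not overlap. It fell by 0.62 (SE 0.0683) in MCF10AT1 (adjusted p = 3.06e-06) and in MCF10Ca1a was 1.11 (SE 0.0677) against MCF10A. CTSZ, the carboxypeptidase cathepsin Z, was at 192, 159.8 and 141 CPM in the MCF10A, 114, 111 and 108 in the MCF10AT1 and 119, 114 and 119 in the MCF10Ca1a libraries. It fell by 0.56 (SE 0.0859) in MCF10AT1 (adjusted p = 6.48e-05), with MCF10Ca1a close to MCF10AT1 in counts (0.07). The mean TPM of CTSZ was 129 in MCF10A, 77.2 in MCF10AT1 and 101 in MCF10Ca1a. PLTP, the phospholipid transfer protein, had counts of 16, 11 and 12 in the MCF10A, 1, 1 and 3 in the MCF10AT1 and 6, 8 and 7 in the MCF10Ca1a libraries, and no MCF10AT1 library reached the level that the filter asks for, so no p is given. Exons of PLTP overlap those of CTSA on the other strand.

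Read from the centromere, the members were divided into runs of 20. The first, from ASXL1 to CTNNBL1, had a median of 0.08 in MCF10AT1 against MCF10A, with 7 rising and 6 falling. On the 3 TPM-based analyses that median was below 0. The second, from TOP1 to ZNFX1, had 19 tested members, a median of -0.13, and 3 rising and 9 falling. In the third, from B4GALT5 to DNAJC5, the median was -0.22, with 5 rising and 12 falling. Over all genes tested, 29.8% rose and 31.8% fell. The other tested 20q genes between the ends of the same runs, 57, 48 and 96 in number, had medians of 0.03, -0.19 and 0.03 in MCF10AT1. Of these genes 16 rose and 12 fell in the first run, 9 and 21 in the second and 31 and 26 in the third. In MCF10Ca1a against MCF10A, the medians of the members in the 3 runs were 0.43, 0.47 and 0.31, and those of the other genes were 0.46, 0.38 and 0.52. The differences between runs, and between the members and the other genes, were not tested.

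The members can be set beside the other tested genes of the chromosome, which are 245 on 20q and 152 on 20p. In MCF10Ca1a against MCF10A, the medians were 0.39 for the members, 0.46 for other 20q genes and 0.31 for 20p, and against MCF10AT1 they were 0.61, 0.38 and 0.36. Chromosome 20 was chosen for its level in MCF10Ca1a, so these medians of both arms describe the choice, and the differences between the sets were not tested. The other 20q genes spread more widely, with the middle 50% between -0.81 and 1.20, against 0.00 and 0.71 for the members. In MCF10AT1 against MCF10A, 45.8% of members fell, as did 30.2% of other 20q genes and 34.2% of 20p genes. By median over its tested genes, chromosome 20 ranked 15 of 23 chromosomes in MCF10AT1 against MCF10A. In MCF10Ca1a its rank, which led to the choice of members, was 1 in both comparisons, with other chromosomes close behind. Against MCF10A its median was 0.39, beside 0.33 for chromosome 9 and 0.29 for chromosome 17. Against MCF10AT1 it was 0.42, beside 0.33 for chromosome 17 and 0.33 for chromosome 1.

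**Figure D4:**
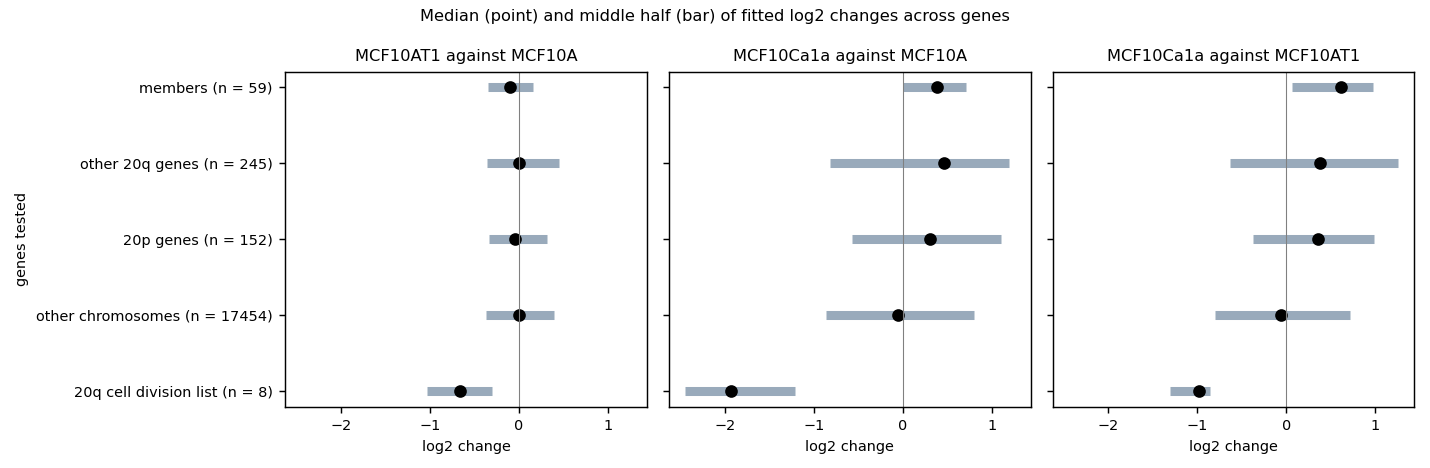
Median log2 change (horizontal axis; points, with bars from the lower to the upper quartile) of the members, other 20q genes, 20p genes, genes of other chromosomes and 8 cell division genes of 20q (vertical axis) for each pair of lines. The members stand at -0.10 in MCF10AT1 against MCF10A and at 0.39 and 0.61 in MCF10Ca1a against MCF10A and MCF10AT1.

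Not every gene of the arm was higher in MCF10Ca1a. A list of 8 cell division genes on 20q outside the members held AURKA, TPX2, UBE2C, MYBL2, E2F1, RBL1, DSN1 and FAM83D. In MCF10AT1, 6 of the 8 fell and E2F1 rose, with a median of -0.66, where 31.8% and 29.8% of all genes tested fell and rose. In MCF10Ca1a all 8 had a change below 0 against MCF10A, as did 51.8% of all genes tested, with a median of -1.93. No test is given for MCF10Ca1a. On the TPM scale not all 8 were lower there. DSN1 was at 29.1 to 29.9 TPM in MCF10Ca1a, 29.1 to 30.3 in MCF10A and 25.8 to 28.6 in MCF10AT1. E2F1 was at 6.66 to 6.88 TPM in MCF10Ca1a, within its range of 6.07 to 7.99 in MCF10A. AURKA, the mitotic Aurora A kinase, was at 196, 187 and 187 CPM in MCF10A, 150.4, 148 and 135 CPM in MCF10AT1 and 33.3, 36.1 and 36.2 CPM in MCF10Ca1a. Its lines did not overlap, and its log2 change in MCF10AT1 was -0.40 (SE 0.0561, adjusted p = 3.32e-05). The nearest member is CSTF1, which was at -0.38 in MCF10Ca1a against MCF10A where AURKA was at -2.43.

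**Figure D5:**
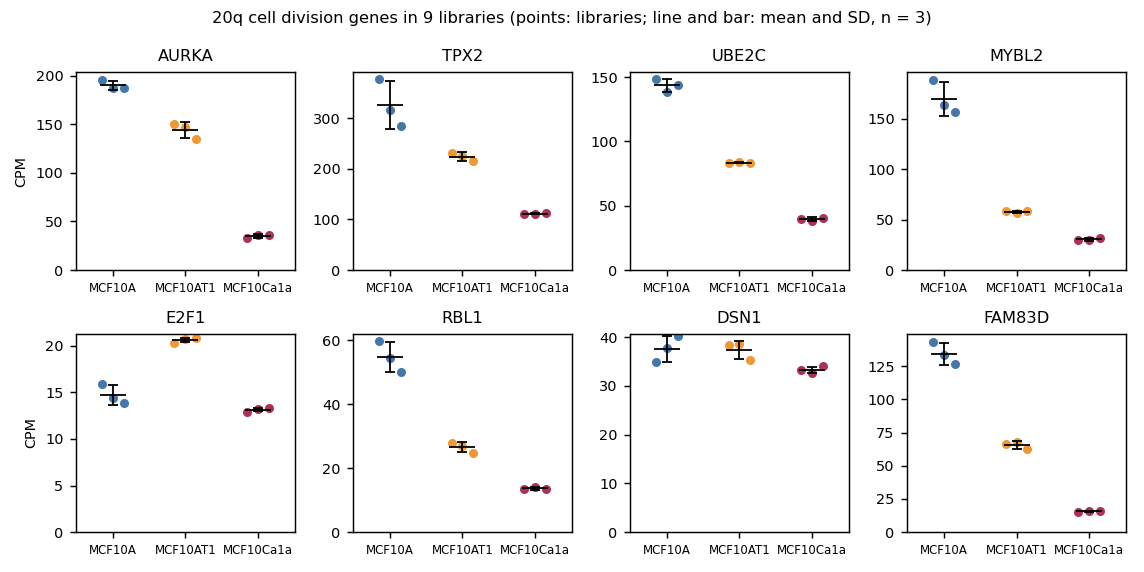
Level in CPM (vertical axis, from 0) of 8 cell division genes of 20q outside the members, by line (horizontal axis); points are libraries, and the line and bar are the mean and SD of 3 libraries. AURKA lies at 187 to 196 CPM in MCF10A and at 33.3 to 36.2 CPM in MCF10Ca1a. In CPM all 8 have their MCF10Ca1a libraries below both other lines, which does not hold in TPM for DSN1 and E2F1.

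Transcript estimates were deposited too. The transcript with the highest mean TPM was the same in all 3 lines for 53 of the 59 tested members. Over the 59, the leading transcript made up a median of 74.5% of its gene in MCF10A, and a median of 8 transcripts was listed per gene. The 6 exceptions were PHF20, DLGAP4, ZHX3, DIDO1, PLTP and CD40, the last 2 with few counts. For PHF20, a reader of methylated lysine, ENST00000617560.1 made up 41.8%, 50.4% and 55.2% of the gene in the MCF10A libraries, 57.4%, 57.1% and 57.1% in MCF10AT1 and 32.7%, 30.0% and 27.7% in MCF10Ca1a. In MCF10Ca1a another transcript, ENST00000374012.8, led with 64.9% ± 4.4 (SD, n = 3). For DLGAP4, ENST00000475894.5 was second in MCF10Ca1a, with 41.1% ± 1.7 (SD, n = 3) against 49.6% ± 0.8 (SD, n = 3) in MCF10A. ZHX3 had 52.4% ± 4.9 (SD, n = 3) of its level in ENST00000683867.1 in MCF10A and 25.9% ± 8.0 (SD, n = 3) in MCF10Ca1a. DIDO1 had its own leader only in MCF10AT1, ENST00000354665.8, at 42.1% ± 6.5 (SD, n = 3). These shares were not tested.

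Shared exons limit some members. On the same strand, 7 members (AHCY, NCOA6, EIF6, RBM12, PLCG1, SYS1 and STX16) share exon bases with another gene, so their counts are uncertain, and on the opposite strand 22 do. The second group holds 4 pairs of members, which are PLCG1 with ZHX3, CTSA with PLTP, NCOA3 with SULF2, and DDX27 with ZNFX1. The library kit keeps strand, but whether quantification used it is not given in the sources used here. In the pairs PLCG1 with ZHX3 and NCOA3 with SULF2, the partners differed in opposite directions in MCF10AT1.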

How the data were processed

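Polyadenylated RNA of 3 lines, with 3 libraries each, was sequenced with a stranded kit, per the labels. The deposited tables hold estimated counts (also as scaled and length-scaled versions) and TPM, per gene and per transcript. Salmon and the build hg38 are named in the submitters' processing notes, and the annotation is not given in the sources used here. Deposited estimated counts were rounded. Deposited TPM values were used for levels between genes, for transcripts and in alternative tests. Columns were matched to libraries by name.

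Genes were kept by edgeR's filterByExpr (minimum count 10, minimum total 15), leaving 17910 of 62666. The test was edgeR's quasi-likelihood test (edgeR 4.0.16, R 4.3.3) with TMM, all 9 libraries in 1 fit, and Benjamini-Hochberg adjustment at 0.05 over all genes tested. Adjusted p values in the text come from this fit unless the sentence names another tool, scaling or set of libraries. Standard errors are the log2 change divided by the root of its F value. Depth was 32.9 to 69.5 M counts per library (M for mega-counts). The floor was 3 counts per library, which covers counting error alone, because PCR copies were not separated by molecular tags. Positions come from GENCODE 29 on GRCh38, matched by unversioned Ensembl identifiers for 58227 genes (92.9%).

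The members and lists were chosen with earlier results of these data known. Given in full were, per role, the members highest and lowest in MCF10Ca1a against MCF10A, the 5 largest rises and falls in MCF10AT1, and SRC, NCOA3, ZNF217, PTPN1, ADRM1, TOP1, ASXL1 and CSE1L. Other members were added after their values were seen.

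Alternatives were DESeq2 1.42.0 size factors and Wald test, TMM without chromosome 20, no filter, scaled and length-scaled counts, a replicate block, thinning to the smallest library, limma 3.58.1 on log2(TPM + 1) and log2(TPM + 0.1), fits of single pairs of lines, and leaving out every library in turn. On simulated data for MCF10AT1 against MCF10A, with 200 of 17406 genes changed 2-fold, edgeR recovered 167 (83.5%) with 10 false calls, DESeq2 161 (80.5%) with 22 and limma 162 (81.0%) with 12. In the data 61.6% of genes passed, many with changes under 2-fold, so these rates need not hold for the calls given above. Replicate libraries were checked pairwise, and chi-square per degree of freedom was 2.51 to 74.8. No pair held identical counts. Whether the libraries of a line came from separate cultures cannot be read from this check.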

Additional observations from a re-analysis of the deposited data

How the results depend on the processing

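No median of the members changed sign under the alternatives run. The median in MCF10AT1 against MCF10A (-0.10) was -0.18 with limma on log2(TPM + 1), -0.20 on log2(TPM + 0.1) and -0.17 on log2(TPM + 1) with no filter. Under these 3 settings 7, 5 and 7 members rose, against 15. The median of all genes moved too, from -0.00 to -0.07, -0.11 and -0.0031, and 18.8%, 19.3% and 10.1% of all genes rose, against 29.8%. With single libraries left out, the median ran from -0.11 to -0.040 (the latter without MCF10A replicate 1), risers from 10 to 19 and fallers from 25 to 29. The median in MCF10Ca1a against MCF10A (0.39) was 0.43 with DESeq2 size factors, the DESeq2 Wald test or only those lines, 0.32 with no filter, 0.32 with length-scaled and 0.33 with scaled counts, 0.45 after thinning, and 0.51, 0.51 and 0.48 with the 3 TPM settings. It ran from 0.34 to 0.40 with libraries left out. The median in MCF10Ca1a against MCF10AT1 (0.61) was 0.66 with DESeq2 size factors or the Wald test, 0.49 with no filter, 0.56 with length-scaled and 0.57 with scaled counts, 0.55 with only those lines, and 0.78, 0.82 and 0.78 with the TPM settings. It ran from 0.47 to 0.61 with libraries left out. On log2(TPM + 1) the median of all genes there moved from -0.04 to 0.13, and the members stood 0.65 above it in both analyses. TMM without chromosome 20 left 15 risers and 27 fallers. Of the MCF10Ca1a changes with an adjusted p under 0.05 in the main fit, those of 5 members took the other sign under some alternatives. That threshold served only to pick them. Against MCF10AT1, PFDN4 was at 0.000618 in all 3 TPM settings, and on log2(TPM + 1) with and without the filter, and on log2(TPM + 0.1), YWHAB was at 0.16, 0.16 and 0.16, CSTF1 at 0.041, 0.041 and 0.042 and PHF20 at -0.13, -0.13 and -0.14. PHF20 was also at -0.43 with length-scaled and -0.42 with scaled counts, and PLCG1 at -0.017 and -0.0080. Against MCF10A, PHF20 was at -0.13 with length-scaled and -0.12 with scaled counts. Changes outside this pick turned too. SAMHD1 and YWHAB were slightly below MCF10A in MCF10Ca1a in counts. Their mean TPM was 12.1 and 268 in MCF10A and 13.2 and 294 in MCF10Ca1a. ZNF217 was slightly below MCF10AT1 in MCF10Ca1a in counts, but its mean TPM was 12.3 in MCF10AT1 and 14.9 in MCF10Ca1a. The cause of these differences was not tested.

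Replicate numbers did not pair the libraries: correlations of same-numbered deviations ran from -0.0597 to 0.0451, and in 3 of 18 comparisons a library correlated best with its own number in another line. With a replicate block, 15 members rose and 27 fell, and the medians were -0.10, 0.40 and 0.61. Depth limits CD40, PLTP and PREX1.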

Other observations

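Another 20q list held 23 genes of epithelial or cancer interest outside the members, of which 21 were tested and BMP7 and BCAS1 had too few counts. In MCF10AT1, 7 rose and 8 fell, where 29.8% and 31.8% of all genes tested did. In MCF10Ca1a against MCF10A, 13 had a change above 0 and 8 below it, where 48.2% and 51.8% of all genes tested did, with a median of 0.42 and no test. PTK6, a cytoplasmic kinase of epithelia, was at 1.72, 1.87 and 1.65 CPM in MCF10A, 18.04, 17.6 and 18.7 CPM in MCF10AT1 and 52.8, 53.4 and 48.6 CPM in MCF10Ca1a. Its lines did not overlap, and it rose in MCF10AT1 by 3.38 (SE 0.0738, adjusted p = 2.31e-13). BCL2L1, an inhibitor of apoptosis, rose by 0.74 (SE 0.0569, adjusted p = 8.48e-08) and was at 1.47 in MCF10Ca1a against MCF10A. SNAI1, a repressor of E-cadherin, was at 0.749, 0.773 and 0.487 CPM in MCF10A, 1.48, 1.66 and 1.60 CPM in MCF10AT1 and 8.22, 9.39 and 9.39 CPM in MCF10Ca1a, and it rose in MCF10AT1 by 1.24 (SE 0.165, adjusted p = 1.92e-05).

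The following 5 genes of this list encode secreted proteins and were chosen after their values were seen. LAMA5, a laminin chain, fell by 0.25 in MCF10AT1 (SE 0.0777, adjusted p = 0.0138). MMP9, a matrix metalloprotease, had counts of 1090, 915 and 936 in the MCF10A, 1, 1 and 0 in the MCF10AT1 and 3, 3 and 4 in the MCF10Ca1a libraries. Elafin, encoded by PI3, was at 18.1, 15.6 and 15.3 CPM in MCF10A, 4.39, 4.10 and 3.42 CPM in MCF10AT1 and 64.9, 64.1 and 69.1 CPM in MCF10Ca1a. PI3 fell by 2.04 in MCF10AT1 (SE 0.0914, adjusted p = 3.29e-10). WFDC2 had counts of 4, 3 and 3 in MCF10A, 291, 256 and 248 in MCF10AT1 and 0 in each MCF10Ca1a library. MMP9 and WFDC2 passed the filter on low counts only through the line where each is high, so no p is given for them, although both are in the counts of risers and fallers. SLPI, a secreted protease inhibitor like elafin, fell by 2.05 in MCF10AT1 (SE 0.0766, adjusted p = 5.27e-11).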
